A study of Mus musculus with 2 samples.

Results

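The genes described here are 10 genes that extracellular signal-regulated kinase (ERK) switches on and that, for the most part, switch ERK off again: the dual specificity phosphatases Dusp1, Dusp4, Dusp5 and Dusp6, the Sprouty genes Spry1, Spry2 and Spry4, the Sprouty-related gene Spred1, and the ETS transcription factors Etv4 and Etv5. They were chosen by symbol from the 32285 genes of the count matrix, and all 10 were found. They were followed in mouse B16 F10 melanoma cells that had been sorted by side scatter into a high pigment and a low pigment fraction, and within each fraction by cell cycle phase and by cluster. Dusp1, which stress also induces, is kept apart from the genes read as ERK output, such as Dusp6 and the Sproutys.

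B16 F10 is a pigmented melanoma line derived from a C57BL/6 mouse, and its labels call the cells melanocytes. Both fractions came from cells plated at 100 cells per cm2, grown for 7 days in high glucose medium containing 10% serum, and detached with trypsin before the sort. The high pigment fraction is the one with high side scatter and the low pigment fraction the one with low side scatter. Neither had a drug treatment or an engineered allele in the labels. Each fraction gave 1 library with a droplet 3' kit that counts RNA molecules by unique molecular identifiers (UMIs). With 1 library per fraction no difference has a replicate check, no test was made, and the 95% intervals below cover counting error only.

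Growth factor receptors activate Ras, Raf, MEK and ERK in turn, and active ERK induces genes that act back on the same chain. Dual specificity phosphatases remove phosphate from MAP kinases, Sprouty and Spred proteins hold back Ras and Raf activation, and Etv4 and Etv5 pass the signal on to further genes. In melanocytes this chain acts downstream of receptors such as Kit, and ERK phosphorylates Mitf, the main transcription factor of the lineage. In human melanoma lines, transcripts of DUSP6, the Sproutys, ETV4 and ETV5 are in common use as a readout of ERK activity. DUSP1 differs from them in that p38 and JNK signalling, glucocorticoids and cell stress also induce it.

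The bases upstream of 4 of the genes are shown because they differ in the response elements they hold. The sequences are from RefSeq on build GRCm38.p6 and end at the base before the annotated start, with motif matches in capitals. Entries were present for 7 of the 10 genes.

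Dusp1: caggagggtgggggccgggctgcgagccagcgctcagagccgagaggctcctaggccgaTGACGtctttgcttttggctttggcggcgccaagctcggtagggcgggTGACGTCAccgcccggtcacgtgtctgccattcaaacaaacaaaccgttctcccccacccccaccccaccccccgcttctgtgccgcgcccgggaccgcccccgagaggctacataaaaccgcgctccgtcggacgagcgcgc
Dusp5: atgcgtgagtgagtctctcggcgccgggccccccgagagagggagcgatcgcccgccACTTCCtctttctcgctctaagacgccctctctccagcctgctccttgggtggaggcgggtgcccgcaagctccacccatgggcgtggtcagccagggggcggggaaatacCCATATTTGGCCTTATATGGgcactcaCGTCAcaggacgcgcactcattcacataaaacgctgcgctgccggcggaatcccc
Dusp6: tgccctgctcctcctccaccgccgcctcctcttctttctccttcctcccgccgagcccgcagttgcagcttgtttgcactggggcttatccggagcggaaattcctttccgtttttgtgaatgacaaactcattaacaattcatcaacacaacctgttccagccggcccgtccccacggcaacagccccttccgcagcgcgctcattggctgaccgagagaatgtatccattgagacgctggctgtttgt
Spry2: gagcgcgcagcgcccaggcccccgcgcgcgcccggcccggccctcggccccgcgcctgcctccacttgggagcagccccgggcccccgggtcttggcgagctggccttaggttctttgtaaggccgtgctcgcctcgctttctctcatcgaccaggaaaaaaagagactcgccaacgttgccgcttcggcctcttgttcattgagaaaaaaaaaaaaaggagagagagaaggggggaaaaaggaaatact

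The Dusp1 stretch, chr17:26508473-26508722 on the minus strand, held the full cAMP response element TGACGTCA 143 bases before the start and a further TGACG, the element's first part, 191 bases before it. The full element occurred in 1.55% and TGACG in 17.8% of the 32851 promoters of the same length, and TGACG also matches inside the full element on both strands. The Dusp5 stretch, chr19:53528895-53529144 on the plus strand, held a pair of CArG boxes, the binding sequence of serum response factor, which began 82 and 72 bases before the start. A CArG box occurred in 1.47% of promoters. Dusp5 also held TGACG 55 bases before the start and the ETS core GGAAGT 193 bases before it, both read on the opposite strand, and GGAAGT occurred in 19.7% of promoters. The Dusp6 stretch, chr10:99262981-99263230 on the plus strand, and the Spry2 stretch, chr14:105896820-105897069 on the minus strand, held none of these motifs, nor the AP-1 site TGACTCA or TGAGTCA (4.46% of promoters) or the ETS site CCGGAAG (6.91%). Of the genes with an entry that are not shown, Spry1 and Spred1 held none of these motifs. Etv5 had 2 annotated starts, of which the first held none and the second held GGAAGT 217 bases before it. Both strands were searched in these windows, and a match is a run of letters, not a shown binding site. Whether the motifs go with the levels of the genes was not tested.

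The cell table kept 2136 high pigment cells with 28848691 UMIs in all, and 1900 low pigment cells with 32437194. High pigment cells had a median of 12557 UMIs and low pigment cells 16019.5, so levels are given as counts per 1000000 UMIs of the library (CPM) and ratios compare shares of RNA, not RNA per cell. The 7 melanocyte markers summed to 14732 CPM in the high pigment and 11243 CPM in the low pigment library. Of other cell types, fibroblast markers summed to 62 UMIs in high pigment and 27 in low pigment cells (1 of 6 at 0 in both libraries). Leukocyte markers summed to 55 in high pigment and 137 in low pigment cells (1 of 7 at 0), and keratinocyte markers to 1 in high pigment and 6 in low pigment cells (2 of 4 at 0). Endothelial markers summed to 86 UMIs in high pigment and 732 in low pigment cells, of which Pecam1 gave 81 in high pigment and 726 in low pigment cells, while Emcn was at 0 and Cdh5, Kdr and Tek had at most 3 each. No barcode sequence was shared between the libraries.

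The high pigment library had less Dusp1 and Dusp5 RNA by several fold, somewhat less Spry1, Spry4 and Etv5, and Dusp4, Dusp6, Spry2, Spred1 and Etv4 within 1.5-fold of the low pigment library, as the plot of levels in both libraries shows. Of the 10 genes, 5 were lower in high pigment cells by 1.5-fold or more and 0 were higher by as much. Among the 7849 genes with a mean of at least 10 CPM, here called measured, 8.08% were that much lower and 3.25% that much higher. Of the 10 genes, 6 reach that mean, and of these Dusp1 and Etv5 were lower. All 10 have a mean of at least 2 CPM, where 12.6% of 10809 genes were lower and 4.75% higher. Dusp1 and Dusp4 have a mean of at least 50 CPM, where 3.84% of 3047 genes were lower and 2.56% higher. Without Dusp1, the median log2 ratio of the other 9 genes was −0.29, beside −0.08 for all measured genes. These medians differ in minimum level, since Dusp5, Spry1, Spry4 and Etv4 have means under 10 CPM. Of the measured genes other than Dusp1, Dusp4, Spred1 and Etv5 had −0.29, −0.11 and −0.77, and Dusp6 and Spry2 had 0.38 and 0.21.

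**Figure D1:**
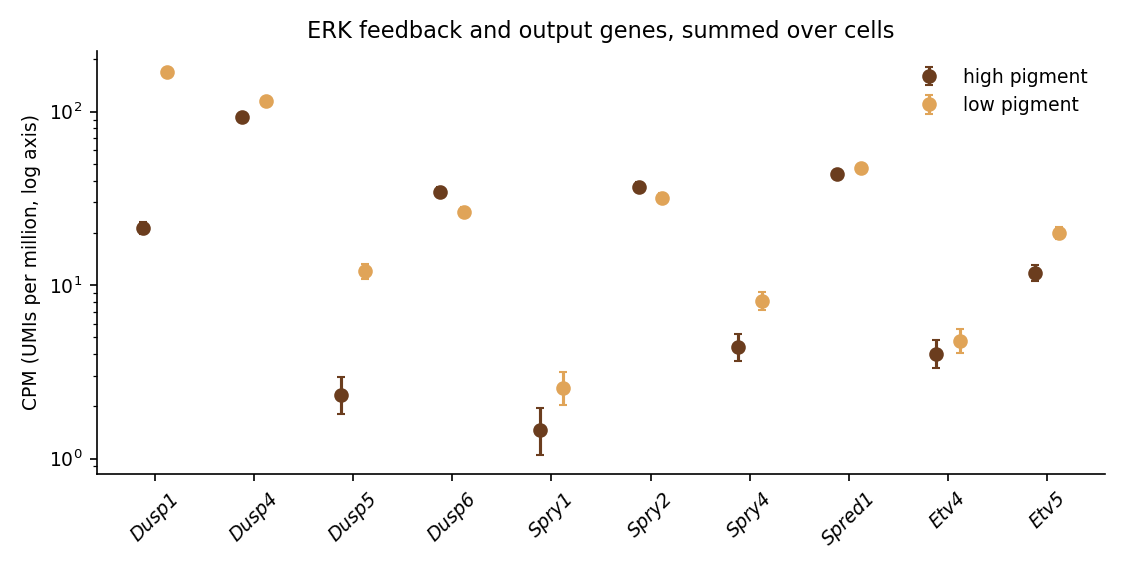
CPM (log axis) of each gene in the high pigment (brown) and low pigment (tan) library, summed over cells, with exact Poisson 95% intervals for counting error. Dusp1 lies at 21.3 CPM in high pigment and 169 CPM in low pigment cells, while Dusp6 and Spry2 lie slightly higher in high pigment cells.

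Dusp1 (chr17:26505590-26562128, minus strand) encodes a nuclear phosphatase that prefers p38 and JNK over ERK. It had 614 UMIs in high pigment cells, 21.3 CPM (19.6–23.0), against 5486 UMIs in low pigment cells, 169 CPM (165–174). It was 7.95-fold lower in the high pigment library (7.31–8.65), a log2 ratio of −2.99. Shares of cells with a UMI follow the mean level and give no separate count of cells that express the gene. With every cell thinned to 7500 UMIs, a Dusp1 UMI was found in 12.5% of high pigment cells (11.1–13.9) against 66.6% of low pigment cells (64.5–68.8). The unthinned shares were 19.1% and 85.4%. At least 3 Dusp1 UMIs were found in 0.749% of thinned high pigment cells against 16.2% of thinned low pigment cells. Both libraries hold 1 cell line, so no cell type that should lack the gene was at hand to show what free RNA contributes to such shares. The annotated span of Dusp1 overlaps 2 genes on its own strand and 2 on the other, and no source used here says how reads in the overlaps were assigned.

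Dusp5 (chr19:53529109-53542431) encodes a nuclear phosphatase specific for ERK, and of the other 9 genes it was the one most like Dusp1 in size and direction. It had 67 UMIs in high pigment cells, 2.32 CPM (1.80–2.95), against 389 UMIs in low pigment cells, 12 CPM (10.8–13.2). It was 5.16-fold lower in the high pigment library (3.98–6.80). After thinning, 1.54% of high pigment cells and 7.21% of low pigment cells had a Dusp5 UMI, and no cell in either library had 3. Dusp5 was thus a rare transcript in both fractions, below the level of a measured gene.

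Dusp4 (chr8:34807297-34819894), a nuclear phosphatase of ERK and JNK that ERK induces, differed far less. It had 93.4 CPM (89.9–97.0) in high pigment and 114 CPM (111–118) in low pigment cells, a ratio of 0.816 (0.777–0.858). A Dusp4 UMI was found in 48.1% of thinned high pigment cells and 53.7% of thinned low pigment cells.

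Dusp6 (chr10:99263231-99267489) encodes the cytoplasmic phosphatase that is specific for ERK and is the best known negative feedback gene of the pathway. It went the other way from Dusp1. Dusp6 had 997 UMIs in high pigment cells, 34.6 CPM (32.4–36.8), against 859 UMIs in low pigment cells, 26.5 CPM (24.7–28.3). Its ratio was 1.31 (1.19–1.43), short of 1.5-fold, with the interval above 1. After thinning, 21.8% of high pigment cells (upper bound 23.6) and 16.8% of low pigment cells (upper bound 18.5) had a Dusp6 UMI. The unthinned shares, 33.3% in high pigment and 34.5% in low pigment cells, run the other way, with a greater depth per cell in the low pigment library.

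The Sprouty genes did not move as a group. Spry2 (chr14:105891947-105896819) had 36.8 CPM (34.6–39.1) in high pigment and 31.8 CPM (29.9–33.8) in low pigment cells, a ratio of 1.16 (1.06–1.26). Spry4 (chr18:38586247-38601415) had 4.40 CPM (3.67–5.24) in high pigment and 8.11 CPM (7.16–9.15) in low pigment cells, 1.84-fold lower (1.48–2.29). Spry1 (chr3:37639947-37644598) had 42 UMIs in high pigment and 83 in low pigment cells, a ratio of 0.569 (0.383–0.834). Sprouty proteins interrupt signalling between receptors and Ras or Raf, and Spry2 was the one of the 3 that counted as measured. Spred1 (chr2:117121374-117182279), which brings the Ras inactivator neurofibromin to the membrane, had 43.6 CPM (41.2–46.1) in high pigment and 47.0 CPM (44.7–49.4) in low pigment cells. Its ratio of 0.928 (0.860–1.00) was not separable from equal shares by counting error.

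Etv4 and Etv5 are PEA3 family ETS factors that ERK both induces and activates, and they are outputs of the pathway rather than inhibitors of it. Etv5 (chr16:22381309-22439719) had 11.7 CPM (10.5–13.0) in high pigment and 19.9 CPM (18.4–21.5) in low pigment cells, 1.70-fold lower (1.49–1.94). Etv4 (chr11:101769742-101785371) had 4.02 CPM (3.32–4.82) in high pigment and 4.78 CPM (4.06–5.59) in low pigment cells, and the interval of its ratio, 0.656–1.08, includes 1. After thinning, an Etv5 UMI was found in 8.15% of high pigment and 13.4% of low pigment cells.

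The authors' cell table places 708, 479 and 949 high pigment cells, and 749, 705 and 446 low pigment cells, in G1, S and G2M. Since this makeup differs, each gene was compared again inside each phase, as the plot of ratios by phase shows. The Dusp1 difference was present in every phase, with 27.1 CPM in high pigment against 174 in low pigment cells in G1, 20.2 against 172 in S, and 18.2 against 159 in G2M. The log2 ratios were −2.68 in G1, −3.10 in S and −3.13 in G2M. For the other 9 genes the median log2 ratio was −0.36 in G1, −0.40 in S and −0.24 in G2M. Dusp1 and Dusp5 were at least 1.5-fold lower in all 3 phases, Spry1 and Spry4 in G1 and S, and Etv5 in S and G2M, and 0 genes were 1.5-fold higher in any phase. That makes 4 of the 10 genes in G1, 5 in S and 3 in G2M, where 9.54%, 8.37% and 9.72% of measured genes were that much lower, and 3.59%, 4.18% and 3.53% that much higher. Dusp5, Spry1 and Spry4 lie under the measured level, so these shares do not cover them. Of the 6 genes measured over all cells, only Dusp1 was that much lower in G1, and Dusp1 and Etv5 in S and in G2M. Spry1 had 9 to 40 UMIs per library and phase, so its place on either side of 1.5-fold is loose.

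**Figure D2:**
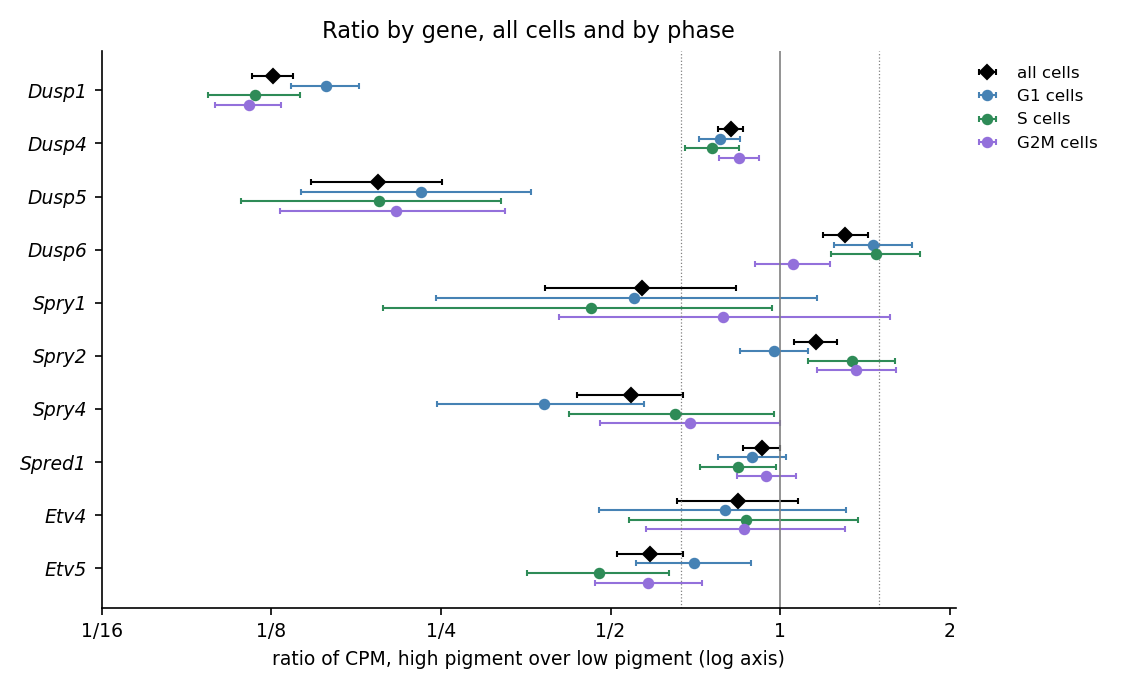
Ratio of CPM, high pigment over low pigment (log axis), for each gene over all cells (black) and within the authors' G1, S and G2M cells, with 95% intervals for counting error and dotted lines at 1.5-fold in each direction. Dusp1 and Dusp5 lie left of the dotted line in every phase, and Dusp6 and Spry2 lie at or right of 1 except for Spry2 in G1, at 0.975.

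With clusters pooled, the ratios of Dusp6 and Spry2 between the libraries differed by phase in different ways. Dusp6 had 39 CPM in high pigment against 26.7 in low pigment cells in G1, and 34.9 against 23.6 in S, with ratios of 1.46 (1.24–1.71) and 1.48 (1.23–1.77). In G2M the levels were 31.7 CPM in high pigment and 30.1 CPM in low pigment cells, a ratio of 1.05 (0.903–1.23). For Spry2 the libraries were level in G1, with 43.0 CPM in high pigment and 44.1 in low pigment cells, and parted in the other phases. In S it had 35.3 CPM in high pigment against 26.4 in low pigment cells (ratio 1.34, 1.12–1.60), and in G2M 33.6 against 24.7 (ratio 1.36, 1.16–1.60).

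Inside a library, with its clusters pooled, phase steps were also seen for Spry2, Dusp4 and Dusp1. The Spry2 G2M level over its G1 level was 0.781 (0.681–0.897) in high pigment and 0.559 (0.475–0.657) in low pigment cells. Dusp4 was lowest in S in both libraries, with an S over G1 ratio of 0.710 (0.633–0.795) in high pigment and 0.731 (0.677–0.789) in low pigment cells. Dusp1 had a G2M over G1 ratio of 0.671 (0.560–0.804) in high pigment and 0.918 (0.857–0.984) in low pigment cells. These phase steps are small beside the several-fold Dusp1 difference between the libraries. In clusters with G1 and G2M levels, Spry2 kept its direction with smaller steps. It went from 35.8 to 33.9 CPM in high pigment cluster 0 and from 48.4 to 39.8 CPM in high pigment cluster 3. In low pigment cluster 1 it went from 43.6 to 37.9 CPM. Dusp1 fell only in high pigment cluster 0, to 14.4 CPM in G2M. It rose to 34.1 CPM, on 18 UMIs, in high pigment cluster 3, and from 175 to 201 CPM in low pigment cluster 1. Dusp4 stayed lowest in S within clusters that have all 3 phases, with smaller steps than with clusters pooled. It had 80.2, 75.2 and 92.6 CPM in G1, S and G2M of high pigment cluster 0, so G2M lay above G1. In low pigment cluster 1 it had 136, 118 and 126 CPM. The part of clusters in the phase steps was not tested.

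The authors' clusters follow the sort closely. Clusters 0 and 3 hold 1520 and 523 high pigment cells but 36 and 19 low pigment cells, and clusters 1 and 2 hold 1023 and 822 low pigment cells but 48 and 45 high pigment cells. A cluster held mostly by 1 library cannot be told apart from that library, so clusters were compared within a library. The comparison is a description, since the genes themselves may have entered the clustering. In high pigment cells, cluster 0 had less than cluster 3 of Dusp1 (15.7 against 27.2 CPM), Dusp4 (86.1 against 123), Dusp6 (32.6 against 45.1) and Spry2 (34.6 against 47.3). In low pigment cells, cluster 2 had less than cluster 1 of Dusp4 (98.7 against 131 CPM) and Spry2 (21.5 against 41.7), whereas Dusp6 was near level (26.3 against 27.0) and Dusp1 a little lower (162 against 181). Clusters 3 and 1 hold most G1 cells of their library. The map of levels by library, cluster and phase shows differences between clusters within a phase too. In high pigment G1 cells, cluster 0 had less than cluster 3 of Dusp4 (80.2 against 124 CPM), Dusp6 (32.5 against 44.7) and Spry2 (35.8 against 48.4). In low pigment cells, cluster 2 had less Spry2 than cluster 1 in S (21.7 against 37.9 CPM) and G2M (20.8 against 37.9). The part of phase in the cluster differences was not tested.

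**Figure D3:**
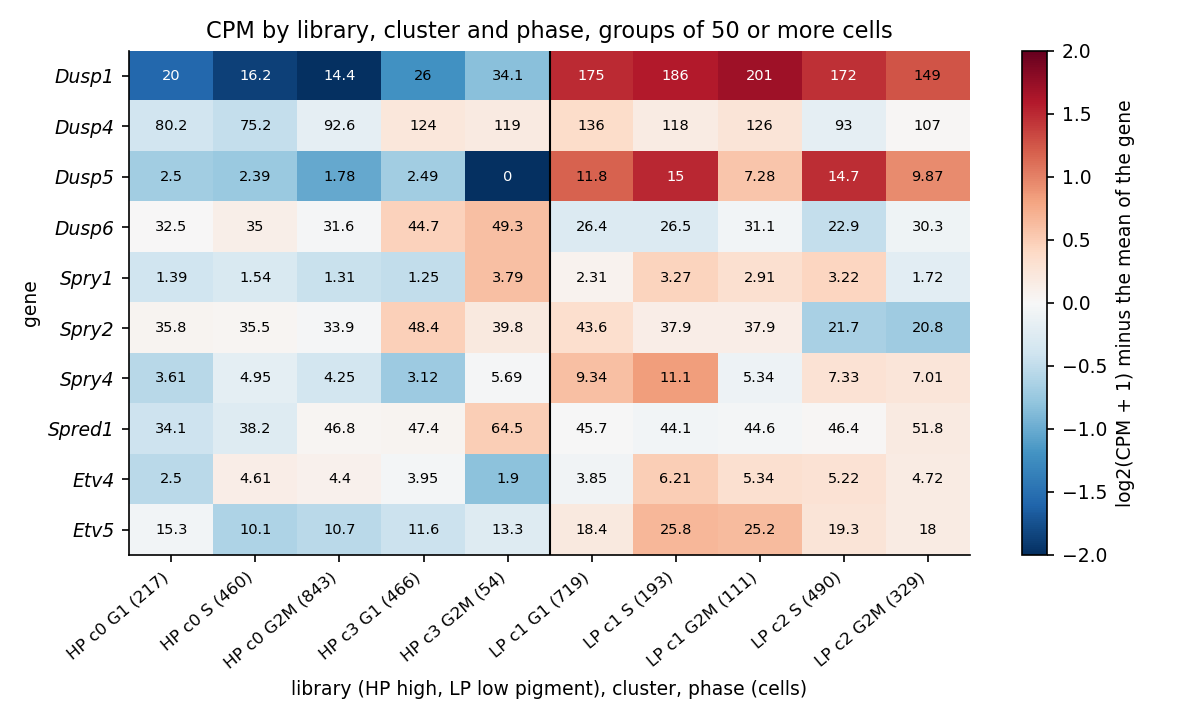
CPM (printed number) of each gene in the 10 groups of library, cluster and phase with at least 50 cells, high pigment (HP) groups left of the line and low pigment (LP) groups right of it, coloured by log2(CPM + 1) minus the gene's mean over the groups. Dusp1 runs from 14.4 to 34.1 CPM in the high pigment groups and from 149 to 201 CPM in the low pigment groups.

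Among these 10 groups, Dusp1 ran from 14.4 CPM in high pigment cluster 0 G2M cells to 34.1 CPM in high pigment cluster 3 G2M cells. In low pigment cells it ran from 149 CPM in cluster 2 G2M cells to 201 CPM in cluster 1 G2M cells. The groups share 2 libraries, and the share of all measured genes whose groups part by library was not counted. Dusp6 differed in the other direction and by less. Its high pigment groups ran from 31.6 CPM in cluster 0 G2M cells to 49.3 CPM in cluster 3 G2M cells, and its low pigment groups from 22.9 CPM in cluster 2 S cells to 31.1 CPM in cluster 1 G2M cells. The nearest levels of the 2 libraries, 31.6 and 31.1 CPM, rest on 410 and 64 UMIs and do not differ beyond counting error. Spry2 was lowest in low pigment cluster 2, at 21.7 CPM in S and 20.8 CPM in G2M, and both libraries' remaining groups lay between 33.9 and 48.4 CPM. For Spry2 the libraries thus overlapped, with high pigment cluster 0 (33.9 to 35.8 CPM) between low pigment cluster 2 and low pigment cluster 1 (37.9 to 43.6 CPM).

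The few cells that sat in the other library's clusters had Dusp1 levels between those of the libraries. The 93 high pigment cells in clusters 1 and 2 had 109 CPM of Dusp1 (89.7–130), and the 55 low pigment cells in clusters 0 and 3 had 96.5 CPM (77.0–119). Dusp6 stood at 21.7 CPM (13.8–32.6) in these high pigment cells and 20.7 CPM (12.3–32.7) in these low pigment cells. None of the 93 high pigment cells was marked as a doublet. Leaving all these cells out moved the Dusp1 log2 ratio to −3.25, an alternative chosen after the data were seen.

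Immediate early genes, the transcripts that cells make within minutes of a stimulus, shared the direction of Dusp1 and came near it in size. Of the 21 in the list, 19 were measured and 19 were lower in high pigment cells by 1.5-fold or more. The median log2 ratio of the list was −2.46. The smallest ratios were those of Fosb, Klf2 and Socs3 (0.146, 0.147 and 0.148) and the largest those of Junb, Maff and Rhob (0.516, 0.474 and 0.418). Cells were grouped by the summed UMIs of the list, which holds none of the 10 genes, after thinning. The median cell had 4 such UMIs in the high pigment and 22 in the low pigment library. Of high pigment cells 83.4% had 0 to 9, against 5.95% of low pigment cells.

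**Figure D4:**
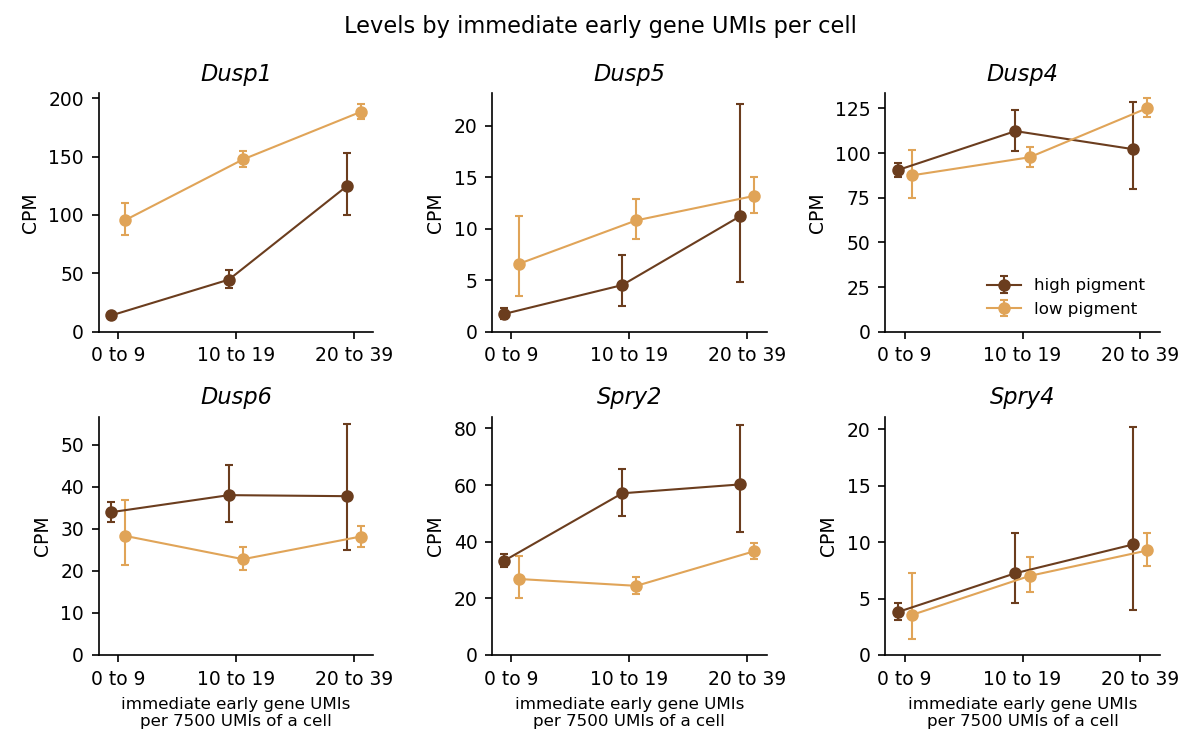
CPM of 6 of the genes in high pigment (brown) and low pigment (tan) cells with 0 to 9, 10 to 19 and 20 to 39 UMIs of the immediate early gene list per 7500 UMIs, with Poisson 95% intervals for counting error. Dusp1 and Dusp5 climb along the axis in both libraries, Dusp6 stays nearly level, and Spry4 is alike in both libraries in each bin.

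Dusp1 followed the list inside both libraries, and at a like level of the list the libraries lay closer. High pigment cells had 14.0, 44.7 and 125 CPM of Dusp1 in the bins of 0 to 9, 10 to 19 and 20 to 39, and low pigment cells 95.6, 148 and 188 CPM. The ratios in these bins were 0.146 (0.122–0.175), 0.303 (0.254–0.358) and 0.662 (0.530–0.817). Even in the lowest bin Dusp1 was thus 6.84-fold lower in high pigment cells, where the median cell had 3 list UMIs against 7 in low pigment cells of the same bin. The bins hold unequal numbers, with 1782, 279 and 67 high pigment cells and 113, 655 and 1046 low pigment cells. The bin of 40 to 79 went the other way, with a Dusp1 ratio of 1.80 (1.20–2.62). It held only 8 high pigment cells, with 31 Dusp1 UMIs, and 86 low pigment cells.

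A small set of high pigment cells carried more of that library's Dusp1 than their number. The 75 cells with at least 20 list UMIs, 3.51% of the library, held 120 of its 614 Dusp1 UMIs, or 19.5%. Of these 75 cells, 39 lay in clusters 1 and 2 and 36 in clusters 0 and 3, and 0 were marked as doublets. Within the high pigment library, Dusp1 was 10.8-fold higher (8.74–13.4) in them than in cells with 0 to 9. Within the low pigment library, cells with at least 40 list UMIs had 2.34-fold more Dusp1 (1.94–2.83) than cells with 0 to 9.

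The other genes followed the list to different degrees. Dusp5 was 6.55-fold higher (2.81–13.6) in the high pigment cells with at least 20 list UMIs than in those with 0 to 9, though from 9 and 43 UMIs, and 2.33-fold higher (1.09–5.14) in the low pigment cells with at least 40. Spry4 had 2.99-fold (1.33–5.93) in high pigment and 2.74-fold (0.993–8.21) in low pigment cells, the last interval including 1. Spry2 was 1.86-fold higher (1.36–2.48) in high pigment and 1.66-fold higher (1.12–2.46) in low pigment cells, so it too followed the list in both libraries. In contrast, Dusp6 gave 1.12-fold (0.748–1.61) in high pigment and 1.23-fold (0.804–1.86) in low pigment cells, and Spred1 0.882-fold (0.592–1.27) in high pigment and 0.943-fold (0.677–1.30) in low pigment cells. For these genes the intervals include 1. Dusp4 gave 1.16-fold (0.920–1.44) in high pigment cells and was 1.88-fold higher (1.53–2.32) in low pigment cells. Etv5 gave 1.53-fold (0.803–2.66) in high pigment and 1.96-fold (1.07–3.61) in low pigment cells. Etv4 gave 0.326-fold (0.00817–1.86) in high pigment cells, from 1 and 96 UMIs, and 0.456-fold (0.109–1.45) in low pigment cells. Spry1 gave 2.09-fold (0.241–8.22) in high pigment and 1.33-fold (0.321–5.23) in low pigment cells. The intervals of Etv4 and Spry1 all include 1.

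Spry4 and Etv5, which were lower in the high pigment library as a whole, lay nearer to equal shares in cells matched on the list. The Spry4 ratios in the bins of 0 to 9, 10 to 19 and 20 to 39 were 1.07, 1.03 and 1.06, and those of Etv5 were 0.966, 0.951 and 0.779. The intervals are wide, since the lowest bin holds 7 Spry4 and 22 Etv5 UMIs in low pigment cells. Spry2, in contrast, parted further in matched cells, with 57.1 CPM in high pigment against 24.4 in low pigment cells with 10 to 19 list UMIs, a ratio of 2.34 (1.94–2.82). Its ratios in the lower and the upper bin were 1.24 (0.940–1.67) and 1.64 (1.18–2.24). Dusp6 had ratios of 1.20 (0.915–1.60), 1.67 (1.34–2.07) and 1.34 (0.874–1.97) over the 3 bins. The bins also differ in the phases and clusters they hold, and the part of these in the matched values was not tested.

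Relations from cell to cell are limited by the few UMIs of these genes per cell. Spearman's rho across thinned cells between Dusp1 and the list was 0.21 in high pigment and 0.18 in low pigment cells, and that between Dusp1 and Dusp6 was −0.01 in high pigment and −0.00 in low pigment cells. Dusp6 and Spry2 had a rho of 0.06 in high pigment and 0.04 in low pigment cells. At these counts per cell such weak values are a description of 2136 and 1900 cells that share a library, and nothing is read from them. Counts of Dusp1 spread more than random sampling gives, with a variance of 1.58 times the mean in thinned high pigment cells and 1.33 times in low pigment cells. Dusp4 stood at 1.14 in high pigment and 1.26 in low pigment cells, Spry2 at 1.22 in high pigment and 1.11 in low pigment cells, and Dusp6 at 1.17 in high pigment and 1.09 in low pigment cells.

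Genes whose pattern was most like a member's over the 10 groups of library, cluster and phase were found by Pearson correlation of log2(CPM + 1), with a mean of at least 10 CPM required. For Dusp1 they were Fosb (r = 0.99), the kinase gene Pim3 (0.99) and the Myc antagonist gene Mxd1 (0.99). For Dusp6 they were Tor1aip2 (0.96), Fam160b1 (0.94) and Ireb2 (0.94), and for Spry2 Nav3 (0.95), Mrpl44 (0.95) and Syt4 (0.94). For Spry4 they were Scarf2 (0.97), Gnb5 (0.95) and Mest (0.94). The groups share 2 libraries, so a gene that differs between the libraries as Dusp1 does scores high. By mean rho across cells within the libraries the genes nearest Dusp1 were Fos (0.17), Jun (0.13) and Sik1 (0.12). Those nearest Spry2 were Fosl2 (0.11), Smad7 (0.10) and Klf4 (0.098), and those nearest Dusp6 were Irf2bpl, Nagk and Sec23ip, none above 0.076. For Spry4 the highest values, of Hspa2, Tra2a and Hist1h2ac, were 0.071, 0.066 and 0.063.

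The rest of the pathway was read from further lists, as the plot of measured genes by list shows. In the MAPK cascade, from Ras to ERK and its effector kinases, 17 of 20 genes were measured and 0 were 1.5-fold higher or lower, with a median log2 ratio of −0.16. Gab1 (0.721), Shc1 (0.758) and Braf (0.787) had the smallest ratios, and Ptpn11 (1.21) and Hras (1.10) were among the largest. Of 15 growth factor receptors 3 were measured, and Met, the receptor of hepatocyte growth factor, was at the limit with 146 CPM in high pigment against 97.1 CPM in low pigment cells, a ratio with an interval of 1.43–1.57. Igf1r and Erbb3 had ratios of 0.831 and 0.891.

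**Figure D5:**
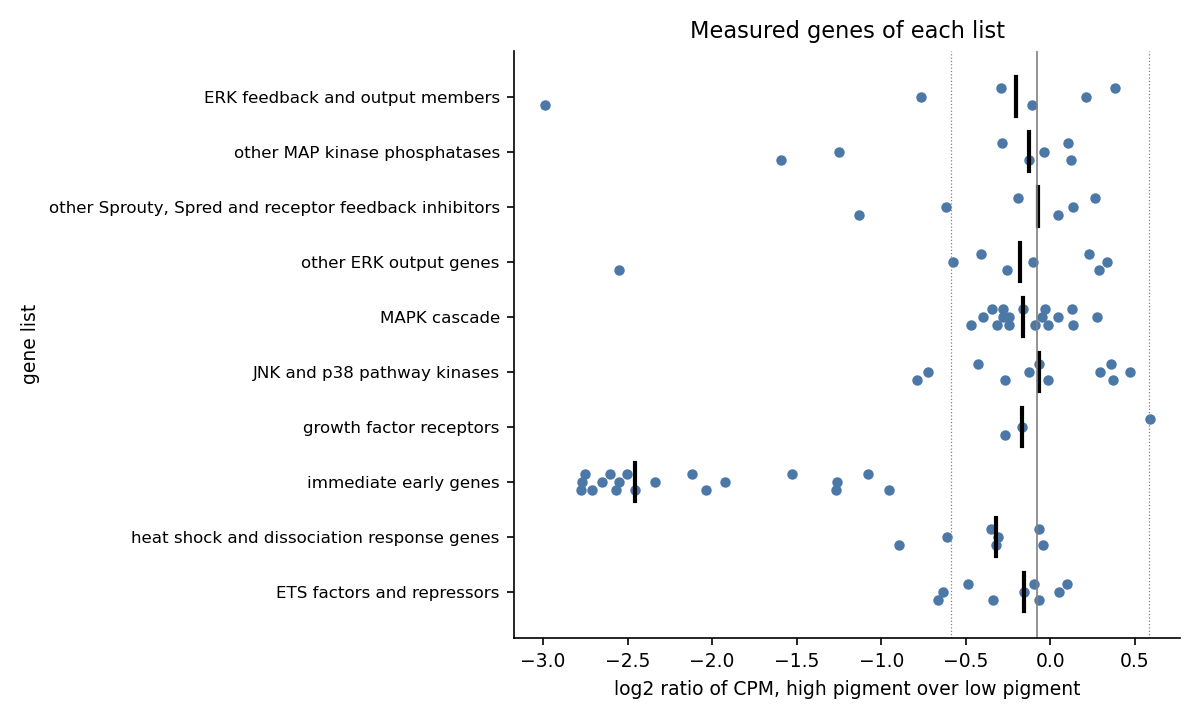
Log2 ratio of CPM, high pigment over low pigment, of each measured gene (point) in the 10 lists, with the list median as a black bar, a grey line at the median of all measured genes (−0.08) and dotted lines at 1.5-fold. The immediate early list has a median of −2.46, and the medians of the other lists lie between −0.32 and −0.07.

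Other MAP kinase phosphatases were mostly level, with 7 of 10 measured, 2 lower, 0 higher and a median log2 ratio of −0.13. The lower ones were Dusp8, a phosphatase of JNK and p38, with 10.2 CPM in high pigment and 30.7 CPM in low pigment cells (ratio 0.332, 0.290–0.378), and Dusp16, a phosphatase of JNK, with 26.3 CPM in high pigment and 62.5 CPM in low pigment cells (0.421, 0.387–0.458). Dusp2, Dusp22 and Dusp10 had ratios of 1.09, 1.08 and 0.976, and Dusp3 one of 0.821. Of other Sprouty, Spred and receptor feedback inhibitors 6 of 10 were measured, 2 were lower and 0 higher (median −0.07). Errfi1, an inhibitor of the epidermal growth factor receptor family, had a ratio of 0.457 (0.409–0.511) and Spred2 one of 0.652 (0.568–0.747), while the Ras inactivators Rasa2, Rasa1 and Nf1 had 1.20, 1.10 and 1.03, and the ubiquitin ligase gene Cbl had 0.874.

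Of other ERK output genes 8 of 14 were measured, and Egr1, which also stands in the immediate early list, was the 1 that was lower, with a ratio of 0.171, and 0 were higher (median −0.18). Ier3 and the cyclin gene Ccnd1 had ratios of 0.670 and 0.753, and Epha4, Phlda1 and Hmga1 had 1.26, 1.22 and 1.17. Of ETS factors and repressors 9 of 10 were measured, with 2 lower and 0 higher (median −0.16): Ets1 at 0.632 and the repressor gene Erf at 0.644. Elk1 stood at 0.713, and Elk4, Etv3 and Elk3 at 1.07, 1.04 and 0.956. Of JNK and p38 pathway kinases 11 of 14 were measured, with 2 lower and 0 higher (median −0.07). The p38 genes Mapk12 and Mapk14 had ratios of 0.580 and 0.605, and Mapkapk2, a kinase that p38 activates, had 0.743, while Map3k5, Mapkapk3 and Map2k3 had 1.39, 1.29 and 1.28. Of heat shock and dissociation response genes 7 of 10 were measured, with Hspa8 (0.539) and Hsph1 (0.654) lower, 0 higher and a median of −0.32. Hspd1 stood at 0.784, and Hsp90aa1, Hspe1 and Dnaja1 at 0.969, 0.956 and 0.807.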

How the data were processed

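The authors deposited 1 matrix of UMI counts for both libraries. Per the submitters' processing notes it came from Cell Ranger 6.1.2 and mm10. No source used here says whether depth was equalised when the libraries were combined. The deposited cell table gives sort, phase, cluster, UMI counts and the percent of mitochondrial UMIs for 4036 of 5818 barcodes, and these cells were used. Columns without a known sample: 0.

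Counts were summed over cells per group and scaled to CPM, with exact Poisson 95% intervals, exact conditional binomial intervals for ratios and Clopper-Pearson intervals for shares. The detection limit, 3 UMIs, equals 0.104 CPM in high pigment and 0.0925 CPM in low pigment cells. Intervals leave out variation between cultures, sorts, library preparations and cells. A gene was measured at a mean of at least 10 CPM and called at 1.5-fold by size alone. Cells were thinned to 7500 UMIs without replacement, and 0 were shallower. Groups under 50 cells were not given as levels unless pooled. Doublets were marked per library with Scrublet in scanpy 1.11.5 at an expected rate of 0.06 and a score over 0.35, which marked 15 high pigment cells (0.702%) and 14 low pigment cells (0.737%). The score limit was set after the automatic one proved unstable, and marked cells were kept. The calculations were tested on simulated data. Gene positions are from GENCODE M21 on GRCm38.

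The members and lists were chosen with earlier results of these data known. From each further list, the text names up to 3 measured genes at either end of the ratios, and an item this rule picks is not reported here. The most similar genes are the 3 with the highest correlation for each of Dusp1, Dusp6, Spry2 and Spry4. Alternatives covered scaling, cell weighting, thinning, doublets, barcodes, phase makeup and calls, immediate early UMIs, fold and minimum CPM.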

Additional observations from a re-analysis of the deposited data

Results flagged for a closer look

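The matrix also holds barcodes outside the authors' cell table, 696 of the high pigment library (median 2924.5 UMIs) and 1086 of the low pigment library (median 1049 UMIs), which entered no comparison above. In these barcodes Dusp6, Spry2 and Spred1 each had more than 1.5 times the low pigment level in the high pigment library. Of the 7525 genes with a mean of at least 10 CPM there, 18.8% were that much higher and 3.27% that much lower, with a median log2 ratio of 0.25. Dusp6 had 28.4 CPM in high pigment and 16.1 CPM in low pigment barcodes, a ratio of 1.76 (1.19–2.64). Spry2 had 46.7 CPM in high pigment and 19.6 CPM in low pigment barcodes, a ratio of 2.39 (1.71–3.39). Spred1 had 50.7 CPM in high pigment and 32.6 CPM in low pigment barcodes, a ratio of 1.56 (1.17–2.07). Dusp1 had 29.2 CPM in high pigment and 109 CPM in low pigment barcodes, a ratio of 0.268 (0.204–0.348) and the same direction as in the table's cells. Dusp5, Spry1, Spry4 and Etv4 were also lower by 1.5-fold or more, with ratios of 0.379, 0.208, 0.521 and 0.391. Each had 2 to 22 UMIs per library and under 10 CPM, so the shares above do not cover them. The intervals of Spry4 and Etv4 include 1. Dusp4 had 88.7 CPM in high pigment and 76.7 CPM in low pigment barcodes, a ratio of 1.16 (0.951–1.41) whose interval includes 1. Its log2 ratio of 0.21 lay near the median of 0.25 in these barcodes. Mitochondrial genes held 8.12% of UMIs in the high pigment and 22.2% in the low pigment barcodes. The part of depth and mitochondrial share in these values, and whether the barcodes are whole cells, was not tested.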

How the results depend on the processing

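Over the 10 ways of processing all cells, Dusp1 had log2 ratios from −3.25 to −2.77, Dusp5 from −2.55 to −1.92, Dusp6 from 0.26 to 0.46, Spry2 from 0.20 to 0.31, Dusp4 from −0.33 to 0.048, Spry1 from −1.32 to −0.73, Spry4 from −1.08 to 0.10, Spred1 from −0.31 to −0.028, Etv4 from −0.87 to −0.093 and Etv5 from −0.87 to −0.051. Dusp1 stood at −2.77 in cells with 0 to 9 immediate early gene UMIs and at −3.25 without cells in clusters held mostly by the other library. That last setting was chosen after seeing the data. The median of the 9 other genes, −0.29 as reported, was −0.21 with the median measured gene set to a ratio of 1 and −0.051 in cells with 0 to 9 immediate early gene UMIs. In those cells Spry4 changed sign to 0.10, from 7 UMIs in low pigment cells, Dusp4 changed sign to 0.048, and Etv5 stood at −0.051. There 4 genes were lower by 1.5-fold in place of 5, namely Dusp1, Dusp5, Spry1 and Etv4. Etv4 entered at −0.87, from −0.25 over all cells, while Spry4 and Etv5 left. The ratio intervals of Spry1 and Etv4 include 1, from 6 and 14 low pigment UMIs. The cause was not tested. The count of higher genes was 1 (Dusp6) at the smaller fold tried. The count of lower genes was 2 at 2-fold, and 1 where a mean of at least 50 CPM was required. The shares of all measured genes past 2-fold and past the smaller fold were not counted. Nor were the shares in cells with 0 to 9 immediate early gene UMIs, so these counts have no background to set them against. Within phases and over their alternatives, the Dusp1 log2 ratio lay between −3.21 and −2.61 and the median of the 9 other genes between −0.57 and −0.24. Phases called on thinned cells put 69.4% of high pigment and 40.5% of low pigment cells in G2M. The authors' calls put 44.4% and 23.5% there. Phase ratios of single genes other than Dusp1 were not recomputed over these alternatives. No paired analysis was possible because each fraction has 1 library. Depth limits Spry1, Spry4, Etv4 and Dusp5, whose means lie under 10 CPM.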
